A study of Mus musculus with 16 samples.

Results

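The CDK inhibitors are the 7 genes Cdkn1a, Cdkn1b, Cdkn1c, Cdkn2a, Cdkn2b, Cdkn2c and Cdkn2d, taken by symbol from the 46078 genes of the count table. All 7 passed the filter on low counts, as did 14897 genes in all. Cultured mouse juxtaglomerular (JG) cells, which carry a yellow fluorescent protein driven by the renin promoter, received either miR-106b or a microRNA precursor that mammals lack. RNA was collected 48 h later in 4 groups of 4 replicate cultures, control and miR-106b cells for polyA RNA, and the same for Ago2-IP RNA. In polyA libraries, messenger RNA was bound by its tail from cells lysed on the dish. In Ago2-IP libraries, RNA was recovered with the protein Ago2 from trypsinized cells of other cultures. The engineered cells are a cultured model, and the reporter is the only transgene the labels name. Because the libraries held no strand information, reads of a gene and of an antisense partner could not be told apart, although no other gene of the table overlapped any of the 7.

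Cyclin-dependent kinases drive a cell through its division cycle, and CDK inhibitors are the proteins that hold them back. The CIP/KIP inhibitors p21 (Cdkn1a), p27 (Cdkn1b) and p57 (Cdkn1c) bind cyclin-kinase complexes of several kinds. The INK4 inhibitors p16 (Cdkn2a), p15 (Cdkn2b), p18 (Cdkn2c) and p19 (Cdkn2d) bind only the kinases CDK4 and CDK6. Cdkn2a also encodes ARF, which protects p53 by binding MDM2. MicroRNAs guide Ago2, the core of the RNA-induced silencing complex (RISC), to messengers that pair with their seed, and Cdkn1a is a known target of the miR-106b seed family.

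The sequences below show what miR-106b-5p shares with its relatives and where its seed could pair with CDK inhibitor messengers. Of 1738 mature mouse microRNAs in the RefSeq table (build GRCm38.p6), 7 carried the same bases 2 to 8, given in capitals. Besides miR-106b-5p and miR-93-5p, which lie on the minus strand of chromosome 5 at positions 138165787 to 138165807 and 138165574 to 138165596, they were miR-17-5p, miR-20a-5p, miR-20b-5p, miR-106a-5p and miR-6383.
mmu-miR-106b-5p: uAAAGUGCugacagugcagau
mmu-miR-93-5p: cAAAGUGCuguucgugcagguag
mmu-miR-17-5p: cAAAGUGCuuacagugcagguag

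In the longest annotated 3′UTR of each CDK inhibitor (GRCm38, GENCODE), matches to this seed were searched on the transcript strand. A 7mer-m8 site is GCACTTT and pairs with bases 2 to 8, a 7mer-A1 site is CACTTTA and pairs with bases 2 to 7 with an A opposite base 1, an 8mer is GCACTTTA and holds both, and a 6mer is CACTTT alone, so that each longer site contains the 6mer. The 3 matches found are shown with their neighbouring bases, the match in capitals.
Cdkn1a: gacctgaataGCACTTTggaaaaatga
Cdkn2b: gtttaataacCACTTTAgaaatttcct
Cdkn1b: ccattagagtCACTTTccatattata

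The Cdkn1a match was a 7mer-m8 at chr17:29099829-29099835 on the plus strand, 436 bases into a 3′UTR of 1334 bases. A 7mer or 8mer site was present in 2 of the 4 Cdkn1a transcripts that have an annotated 3′UTR. The Cdkn2b match was a 7mer-A1 at chr4:89306366-89306372 on the minus strand, and the Cdkn1b match was a 6mer at chr6:134923425-134923430 on the plus strand. Cdkn1c, Cdkn2a, Cdkn2c and Cdkn2d held none of these letters in their longest 3′UTR. In the transcripts with the longest 3′UTR, no coding sequence of the 7 genes held any, and the coding sequences of other transcripts were not searched. Among 13222 tested genes with an annotated 3′UTR, 14.78% held a 7mer-m8 or an 8mer, and 42.01% held at least the 6mer, so that the 6mer of Cdkn1b is a common match.

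Library totals ran from 2579086 to 9459585 counts, with medians of 6450100 in polyA control and between 3264120 and 3645940 in the other 3 groups. Renin (Ren1), which defines JG cells, had 0 counts in all 16 libraries, and Akr1b7, another JG cell gene, had 6 counts in all. Both belong to a list of 14 JG and mural cell genes, of which genes shared with smooth muscle and pericytes were abundant, such as Des with 185278 counts, Acta2 with 37531 and Pdgfrb with 12627 over the 16 libraries. The summed level of this list was 2634 to 2935 CPM in polyA control, 3719 to 4701 in polyA miR-106b, and 5173 to 5717 in Ago2-IP RNA, and of its 12 tested genes 8 were called higher and 1 lower in polyA miR-106b. Much of this sum was Des, which heart muscle also expresses, at a mean of 1102 CPM in polyA control and 4345 CPM in Ago2-IP control, while Acta2 (757 and 254 CPM), Tagln (498 and 89.5 CPM) and Foxd1 (52.7 and 2.53 CPM) were lower in Ago2-IP control. Other mural cell genes were higher there, among them Pdgfrb (118 and 234 CPM), Notch3 (126 and 245 CPM), Rgs5 (38.5 and 147 CPM), Cspg4 (31.9 and 125 CPM), Mcam (35.5 and 106.2 CPM) and Myh11 (15.6 and 58.0 CPM). JG cells is thus the name the labels give, which renin did not bear out, and which cells gave the RNA was not tested. Transcripts of 25 cardiac muscle genes were abundant and differed between groups. Their summed level, in CPM, the counts scaled to library size, was 27394 to 38470 in polyA control, 52822 to 90560 in polyA miR-106b, 121919 to 130580 in Ago2-IP control and 118045 to 129453 in Ago2-IP miR-106b. Of the 24 cardiac genes tested, 23 were called higher in polyA miR-106b than in polyA control and 0 lower, as were 8 of 8 endothelial and 7 of 7 leukocyte and red cell genes. In bulk RNA, fewer cells of a type and less RNA per cell cannot be told apart. Since the cardiac ranges of the polyA groups did not overlap, a change with miR-106b and a change with the level of cardiac transcripts cannot be told apart either.

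To ask how CDK inhibitor messengers responded to miR-106b, the polyA groups were compared first. Cdkn1a fell to 0.660 of its control level, Cdkn1c rose 2.14-fold, and the other 5 members did not pass the test. With edgeR's quasi-likelihood test, adjusted over all 14897 genes by Benjamini-Hochberg, 2 of 7 members were therefore called, 1 lower and 1 higher. Of all tested genes, 40.5% were called, 21.5% lower and 19% higher, and 2 of 7 is no more than that background. Called genes were 47.0% higher in this fit and 61.4% higher when all 16 libraries were scaled and fitted together.

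**Figure D1:**
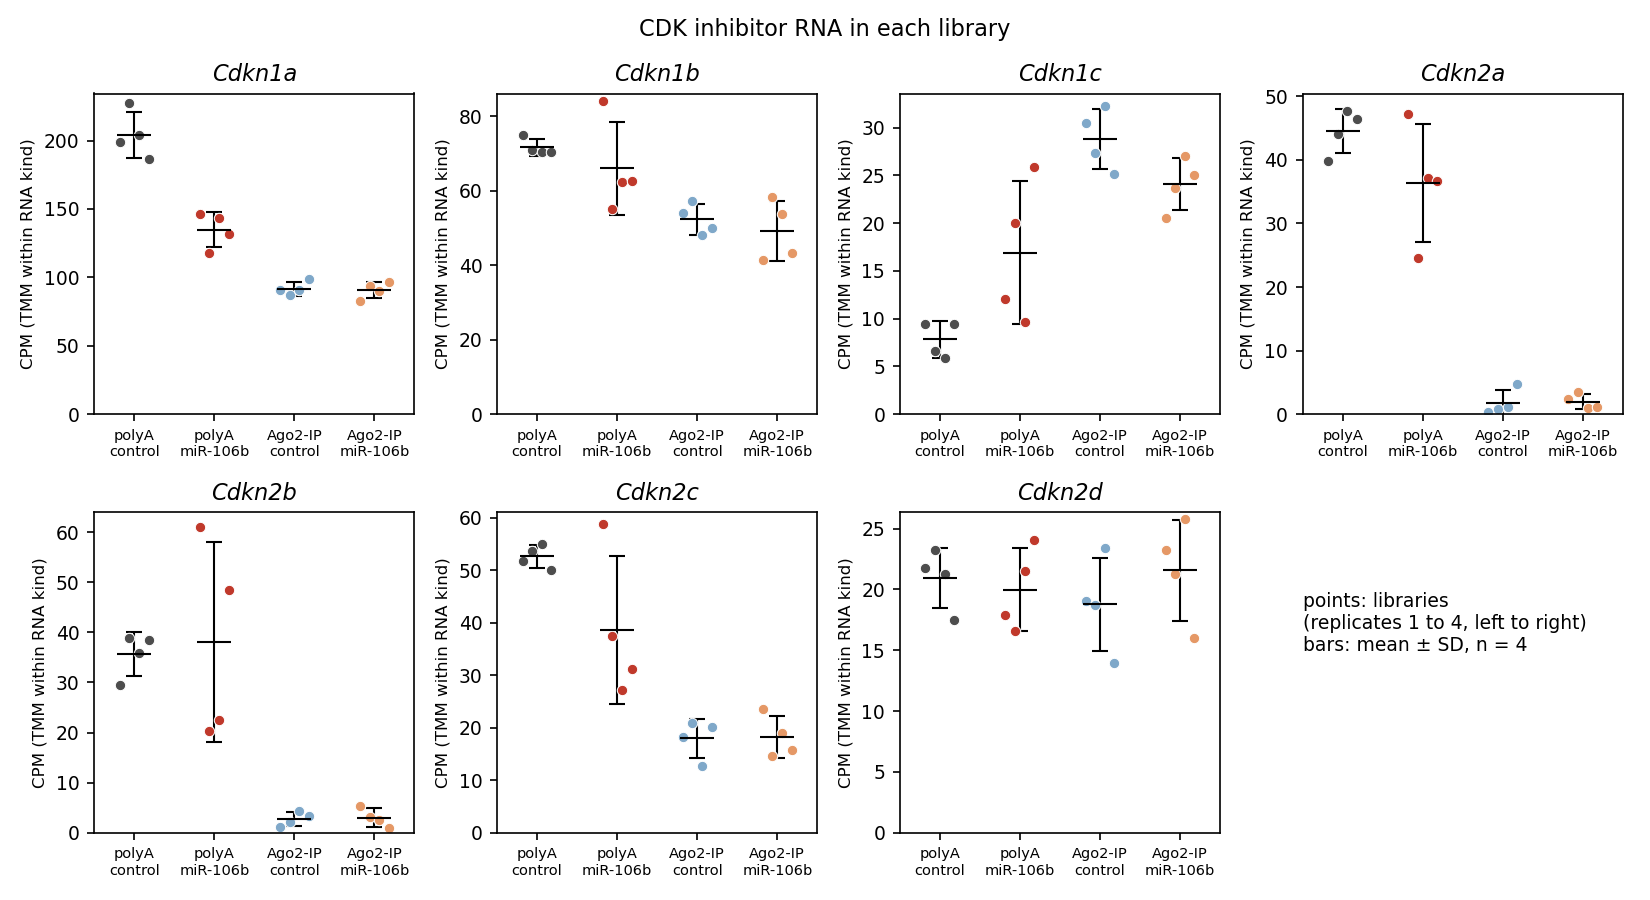
Level of each CDK inhibitor in each library, in CPM after TMM scaling within polyA or Ago2-IP libraries (vertical axes start at 0), with bars for mean ± SD of 4 libraries. Cdkn1a was at 118 to 146 CPM in polyA miR-106b, under every polyA control library, and Cdkn2a and Cdkn2b were under 6 CPM in every Ago2-IP library.

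Cdkn1a (ENSMUSG00000023067, chr17:29090979-29100722) encodes p21, the inhibitor that p53 induces and that also binds the replication clamp PCNA. In CPM scaled by TMM within the polyA libraries, as are the polyA levels that follow, its level was 199, 227, 204 and 187 in polyA control and 146, 118, 144 and 131 in polyA miR-106b. No miR-106b library reached the lowest control. The means were 204 ± 16.9 (SD, n = 4) and 135 ± 12.9 (SD, n = 4), and the fitted log2 fold change was -0.60 (SE 0.110, 95% interval -0.84 to -0.36, adjusted p = 0.00128 in edgeR). An exact two-sided permutation test of the 4 against 4 libraries gave p = 0.0286, the smallest it can give. Groups that did not overlap, with miR-106b lower, were found for 21.6% of tested genes. The fall in Cdkn1a kept its call in every alternative run, with a log2 fold change between -0.64 and -0.46.

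Cdkn1a also followed the cardiac transcripts from library to library. Taken in order of rising cardiac level, which puts the 4 control libraries before the 4 miR-106b libraries, Cdkn1a was at 227, 204, 199, 187, 146, 144, 131 and 118 CPM. Each value was lower than the one before, within as well as between the groups. Among the 14897 tested genes, 0.336% fell at every step of this order and 1.87% rose at every step. No other member did either. The order was noticed in these values and is a description. With scaling by library size alone, the first 2 miR-106b libraries of the order changed places, at 144 and 150 CPM. The part of the cardiac transcripts in the fall of Cdkn1a was not tested.

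**Figure D2:**
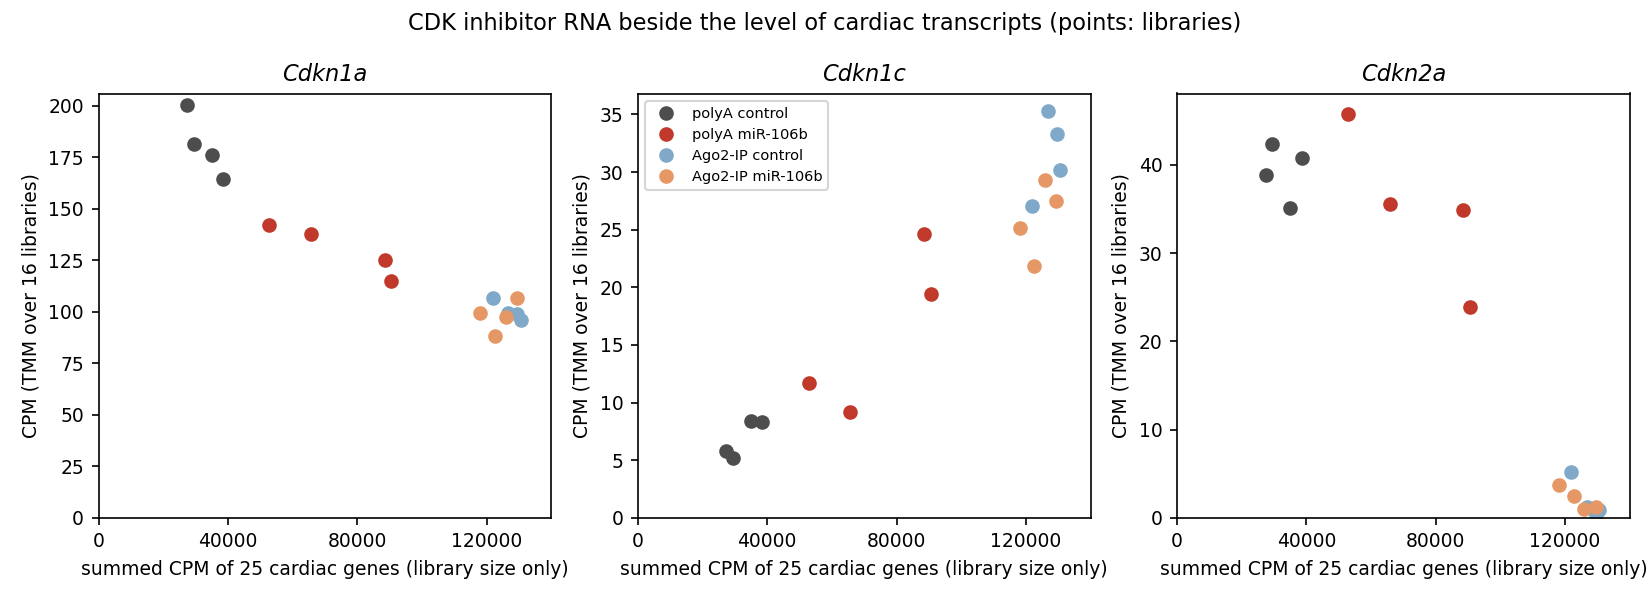
CPM of Cdkn1a, Cdkn1c and Cdkn2a (TMM over 16 libraries) against the summed CPM of 25 cardiac genes (library size only), 1 point for each library, coloured by group. Across polyA libraries Cdkn1a fell step by step as the cardiac sum rose from 27394 to 90560, and the highest polyA values of Cdkn1c were in the 2 libraries with the highest cardiac sums.

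Cdkn1b (ENSMUSG00000003031, chr6:134920401-134925513) encodes p27, whose amount is set largely by its breakdown. Its polyA level was 75.1, 70.9, 70.5 and 70.5 CPM in control and 84.0, 55.3, 62.5 and 62.6 CPM with miR-106b. Replicate 1 of miR-106b lay above every control library and the other 3 below, and the log2 fold change was -0.11 (SE 0.129, 95% interval -0.39 to 0.17, adjusted p = 0.510). The ratio of Cdkn1a counts to Cdkn1b counts within a library does not depend on scaling. It was 2.65 to 3.21 in polyA control and 1.74 to 2.30 in polyA miR-106b.

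Cdkn1c (ENSMUSG00000037664, chr7:143458350-143461050) encodes p57, a product of an imprinted gene that is expressed from the maternal copy. Its polyA level was 9.47, 6.60, 5.84 and 9.43 CPM in control and 12.1, 20.02, 9.64 and 25.9 CPM with miR-106b. The groups did not overlap, but replicate 3 of miR-106b was barely above the highest control, and replicates 2 and 4 carried most of the difference. Means were 7.83 ± 1.89 and 16.9 ± 7.46 CPM (SD, n = 4), the log2 fold change was 1.09 (SE 0.293, 95% interval 0.46 to 1.73, adjusted p = 0.0101), and the exact permutation test gave p = 0.0286. Groups not overlapping, with miR-106b higher, were found for 16.7% of tested genes. These values rest on 35 to 75 counts in each polyA library.

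Replicates 2 and 4 of polyA miR-106b were the polyA libraries with the highest cardiac levels, 90560 and 88461 CPM. Without the pair, a setting chosen after the data were seen, the log2 fold change of Cdkn1c was 0.53 and its adjusted p 0.167, and 1 member was called instead of 2. Cdkn1a kept its call without them (log2 fold change -0.46, adjusted p = 0.0179). The part of the cardiac transcripts in the rise of Cdkn1c was not tested.

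None of the INK4 members passed the test in polyA RNA. Cdkn2a (ENSMUSG00000044303, chr4:89274471-89294653), whose counts pool the p16 and ARF messengers, was at 39.8, 44.1, 47.7 and 46.4 CPM in polyA control and at 47.2, 24.6, 37.2 and 36.7 CPM in polyA miR-106b. The spread with miR-106b took in most of the control range (log2 fold change -0.29, SE 0.166, 95% interval -0.65 to 0.07, adjusted p = 0.190). Cdkn2b (ENSMUSG00000073802, chr4:89306289-89311032), the neighbour of Cdkn2a on chromosome 4 and a gene that TGF-β induces, was at 29.5, 38.9, 35.9 and 38.4 CPM in control. With miR-106b it split into a high pair of libraries, replicates 1 and 4 at 61.0 and 48.5 CPM, and a low pair, replicates 2 and 3 at 20.3 and 22.6 CPM. All 4 lay outside the control range, on either side of it, and the log2 fold change was 0.09 (SE 0.310, 95% interval -0.59 to 0.78, adjusted p = 0.834).

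Cdkn2c (ENSMUSG00000028551, chr4:109660876-109667189), which encodes p18, was at 51.8, 53.7, 54.9 and 50.1 CPM in polyA control and at 58.8, 37.4, 27.3 and 31.1 CPM in polyA miR-106b. Again replicate 1 of miR-106b lay above every control and the other 3 below. The log2 fold change was -0.43 (SE 0.193, 95% interval -0.85 to -0.015), and at an adjusted p of 0.0910 it missed the threshold. Without replicate 1 of polyA miR-106b it was -0.64 with an adjusted p of 0.00155, and with all 8 libraries the call depended on the filter and the test. With no filtering of low counts its adjusted p was 0.0345, and in edgeR's likelihood ratio test it was 0.00081. Cdkn2d (ENSMUSG00000096472, chr9:21288463-21291209), which encodes the INK4 inhibitor p19, was at 21.8, 23.2, 21.2 and 17.5 CPM in control and at 17.9, 16.6, 21.5 and 24.1 CPM with miR-106b. The groups overlapped, and the log2 fold change was -0.08 (SE 0.158, 95% interval -0.42 to 0.26, adjusted p = 0.712).

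Replicate 1 of polyA miR-106b was the highest library of its group for Cdkn1a, Cdkn1b, Cdkn2a, Cdkn2b and Cdkn2c, and had the lowest cardiac level of its group, 52822 CPM. By the correlation of log2 CPM over the 8 polyA libraries, among the 10917 tested genes whose mean was 5 CPM or more, the genes most like Cdkn1a were Actr3 (r = 0.998), Rpl9 (r = 0.994) and Aprt (r = 0.993). Those most like Cdkn1b were Tmem258, Ppp3ca and Plscr3 (r = 0.988 to 0.994), those most like Cdkn1c included Fam98c and Ppp6r1 (r = 0.992 and 0.986), and those most like Cdkn2a were Dzip1, Paqr8 and Ppil4 (r = 0.978 to 0.983). Cdkn2b was most like Myl12b, Sec31a and Shox2 (r = 0.982 to 0.995), Cdkn2c most like Fam204a, Atg4b and Rbsn (r = 0.973 to 0.982), and Cdkn2d most like Haus8, Armc1 and Mturn (r = 0.955 to 0.969). The libraries are shared by all these genes, and the highest of many correlations over 8 points is high by selection.

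Genes that act with the CDK inhibitors were counted from 6 lists. None of the cyclins and kinases listed was called higher in polyA miR-106b (1 D-type gene was, with all 16 libraries fitted together). Of all tested genes, 21.5% were called lower. Of the 5 D-type cyclins and their kinases, which the INK4 proteins hold back, 3 fell, namely Cdk6 (log2 fold change -0.91, adjusted p = 0.00311), Ccnd1 (-0.81, adjusted p = 0.00127) and Cdk4 (-0.57, adjusted p = 0.00758), and the median of the list was -0.57. All 7 cyclins E, A and B and their kinases fell, and 5 to 7 of them were called lower with single libraries left out or under the alternative settings. The log2 fold change was -1.99 for Ccna2, -1.91 for Cdk1, -1.77 for Ccnb1 and -1.76 for Ccne2, and the median of the list was -1.76. These are fits in edgeR over the 8 polyA libraries, with a median log2 fold change over all tested genes of -0.05. Without replicate 2 of polyA control the call of Cdk4 was lost (log2 fold change -0.47, adjusted p = 0.0530). Ccne2, at a mean of 2.77 CPM in control, lost its call without control replicates 1, 2 or 3 or without miR-106b replicate 3 (adjusted p = 0.0506, 0.0984, 0.0575 and 0.0502), while its log2 fold change stayed between -1.67 and -1.38 in these fits.

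Genes that report on proliferation fell with them. Of 12 readers of the pathway (retinoblastoma family and replication genes), 10 fell and 0 rose, with a median log2 fold change of -1.44, beside 21.5% lower and 19% higher over all tested genes. Top2a, a topoisomerase of dividing cells, fell from 123 ± 24.95 to 32.7 ± 26.2 CPM (SD, n = 4), and Mki67, the Ki-67 gene, from 171 ± 28.2 to 45.3 ± 35.0 CPM (SD, n = 4). Mcm5 and Mcm3, parts of the replication helicase, fell by 1.90 and 1.63 on the log2 scale. The adjusted p of Top2a was 0.0160 in edgeR and that of Mki67 was 0.0165. Neither was called without a filter on low counts (log2 fold changes -1.89 and -1.88, against -1.91 for both with it), and each lost its call without polyA control replicate 2 (adjusted p = 0.0659 and 0.0669) or replicate 3 (0.0587 and 0.0571), Mki67 also without replicate 1 (0.0525), with log2 fold changes from -1.80 to -1.74 in these fits. Without miR-106b replicates 2 and 4, 6 of the 12 readers were called lower, and none of Top2a, Mki67, Mcm5 and Mcm3 was among them, although their log2 fold changes were still -1.58, -1.61, -1.72 and -1.41.

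The regulators of the CDK inhibitors were mixed. Among 12 tested activators of their transcription, 4 fell and 2 rose (median log2 fold change -0.11), beside 21.5% lower and 19% higher over all tested genes, and 4 rose with all 16 libraries fitted together. Trp53, the gene of p53, fell from 235 ± 17.9 to 115 ± 21.4 CPM (SD, n = 4), Klf4 fell by 0.76 on the log2 scale, Sp1 by 0.66 and Klf6 by 0.64. Without miR-106b replicates 2 and 4, Sp1 was no longer called (log2 fold change -0.49, adjusted p = 0.0734 in edgeR) and 1 activator rose. Of 12 ubiquitin ligase parts and cofactors that turn over CIP/KIP proteins, 6 fell and 1 rose, with a median of -0.36, beside the same shares of all tested genes. Without polyA miR-106b replicate 1, or with all 16 libraries fitted together, 2 of them rose. Skp2 and Cks1b, which mark p27 for breakdown, fell by 1.25 and 1.31 on the log2 scale, Dtl, which does so for p21, fell by 1.73, and Mdm2, the ligase of p53, by 0.69. The gene that rose, Fbxw7 (0.44, adjusted p = 0.0322), named after its values were seen, lost its call when any of 4 libraries was left out, namely control replicate 2 or 4 or miR-106b replicate 2 or 4, and with the replicate number as a block.

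Among 11 polycomb genes and repressors of the INK4 loci, 4 fell and 2 rose, with a median log2 fold change of -0.25, beside the same 21.5% lower and 19% higher over all tested genes. Ezh2 and Suz12, core parts of polycomb repressive complex PRC2, fell, with log2 fold changes of -1.17 and -1.03. Tbx2, a T-box repressor of Cdkn2a, rose 0.98 and Cbx7 rose 0.85 on the same scale, with adjusted p of 0.000895 and 0.0154 in edgeR. Without replicate 2 of polyA miR-106b, Cbx7 was no longer called (log2 fold change 0.61, adjusted p = 0.0623) and 1 gene of the list rose. Without replicates 2 and 4, 2 genes of the list fell and 1 rose. The cardiac levels given above differed between the same groups, and their part in the changes of all 6 lists was not tested.

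The same comparison in RNA bound to Ago2 asks whether miR-106b drew CDK inhibitor messengers into RISC. With edgeR, 0 of 7 members were called, against 0% of all tested genes. At an unadjusted p under 0.05 there were 827 genes, 5.55%, and 0 members. DESeq2 called 2 genes and edgeR's likelihood ratio test 18, with 0 members among them. None of the 6 lists had a gene called.

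In CPM scaled by TMM within the Ago2-IP libraries, Cdkn1a was at 90.5, 86.8, 90.8 and 98.7 in control and at 82.9, 93.4, 89.9 and 96.9 with miR-106b. The means, 91.7 ± 4.999 and 90.8 ± 5.96 (SD, n = 4), differed by less than the spread between libraries, and the log2 fold change was -0.014 with a 95% interval from -0.16 to 0.13. Cdkn1b was at 54.1, 57.2, 48.1 and 50.01 CPM in control and at 41.5, 58.4, 53.8 and 43.4 CPM with miR-106b, again overlapping (log2 fold change -0.08, 95% interval -0.29 to 0.12). Cdkn1c was at 30.4, 27.4, 32.2 and 25.1 CPM in control and at 20.5, 23.6, 27.1 and 25.02 CPM with miR-106b. Its log2 fold change of -0.25 (95% interval -0.52 to 0.020) had an unadjusted p of 0.0690 and an adjusted p of 0.894 in edgeR, and the exact permutation test gave p = 0.0571.

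Cdkn2a and Cdkn2b were near the limit of detection in Ago2-IP RNA. Cdkn2a had 1, 3, 4 and 22 counts in the control libraries and 6, 12, 3 and 4 with miR-106b, and Cdkn2b had 4, 8, 16 and 15 counts in control and 14, 11, 8 and 3 with miR-106b. In these libraries 3 counts, the most that a count of 0 would allow, stood for 0.650 to 1.16 CPM, a limit that covers counting error only. Neither gene was called, and the 95% intervals of the log2 fold change with miR-106b were wide, from -1.12 to 1.32 for Cdkn2a and from -0.83 to 0.998 for Cdkn2b. The libraries with 22 and 12 counts of Cdkn2a were also those with the most Gm10800, an abundant transcript, at 11168 and 15036 CPM against 225 to 10645 CPM in the other 6 Ago2-IP libraries. The part of that transcript was not tested. Cdkn2c was at 12.6 to 20.9 CPM in control and 14.6 to 23.6 CPM with miR-106b, and Cdkn2d at means of 18.8 ± 3.84 and 21.6 ± 4.15 CPM (SD, n = 4), and both genes overlapped between groups.

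RISC association was followed as the ratio of Ago2-bound to polyA RNA, the measure of the study design. The change of that ratio with miR-106b was tested as an interaction over all 16 libraries. Cdkn1a rose and Cdkn1c fell in the ratio, and the other 5 members did not pass the test. The log2 change was 0.44 for Cdkn1a (SE 0.130, 95% interval 0.17 to 0.71, adjusted p = 0.0137) and -1.49 for Cdkn1c (SE 0.319, 95% interval -2.15 to -0.83, adjusted p = 0.00114), both in edgeR. Of all tested genes, 7.62% were called higher, as Cdkn1a was, and 19.7% lower, as Cdkn1c was. The share of higher calls was 27.9% in this fit and 46.3% with scaling by library size alone. Both calls were kept in every setting run. Without polyA miR-106b replicates 2 and 4, the log2 change was 0.36 for Cdkn1a and -0.87 for Cdkn1c (adjusted p = 0.0457 and 0.0286). For both genes the polyA groups did not overlap and the Ago2-IP groups did.

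**Figure D3:**
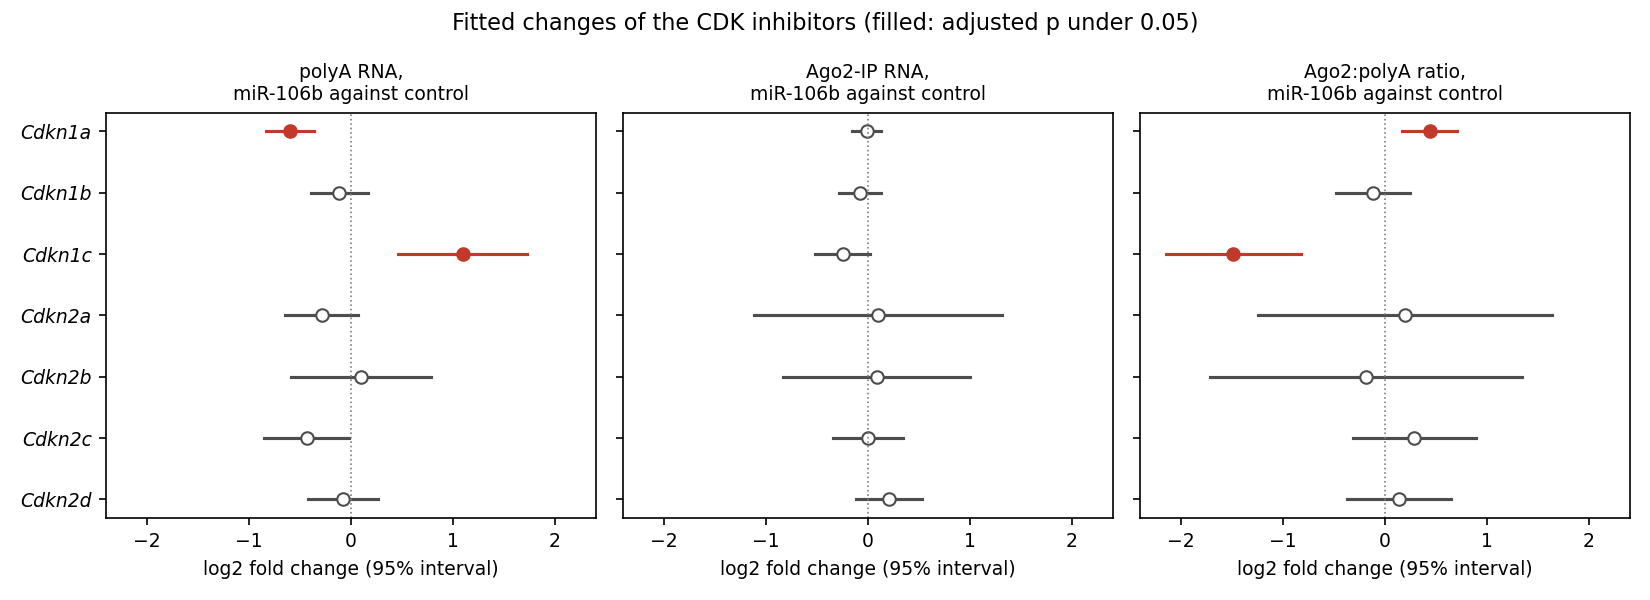
Fitted log2 fold changes of the 7 CDK inhibitors with miR-106b against control in polyA RNA, in Ago2-IP RNA and in the Ago2:polyA ratio (horizontal axis), with 95% intervals. Cdkn1a and Cdkn1c, filled, passed an adjusted p under 0.05 in polyA RNA (-0.60 and 1.09) and in the ratio (0.44 and -1.49), and no member passed it in Ago2-IP RNA.

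Ago2-IP and polyA RNA were then compared within each transfection, with TMM scaling over all 16 libraries. In control cells Cdkn1c was 4.57-fold higher in Ago2-IP than in polyA RNA, while Cdkn2a was at 0.0538, Cdkn2b at 0.0970, Cdkn2c at 0.423 and Cdkn1a at 0.555 of the polyA level. Hence 4 of 7 members were lower and 1 was higher, where 34.6% of all tested genes were called lower and 35.1% higher. The log2 differences were 2.19 (SE 0.225) for Cdkn1c, -4.22 (SE 0.388) for Cdkn2a, -3.37 (SE 0.438) for Cdkn2b, -1.24 (SE 0.199) for Cdkn2c and -0.85 (SE 0.0913) for Cdkn1a. The largest of their adjusted p, that of Cdkn2c, was 8.73e-06 in edgeR. Without Ago2-IP control replicate 4, which held 22 of the 30 counts of Cdkn2a in its group, the log2 difference of Cdkn2a was -5.55. In the alternative settings that kept all libraries and tested Cdkn2a, it ran from -5.11 to -4.24. Cdkn1b (-0.15, adjusted p = 0.284) and Cdkn2d (0.14, adjusted p = 0.474) did not pass.

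With miR-106b the same 5 members were called, 4 lower and 1 higher, beside 24.4% and 21.9% of all tested genes. The log2 differences between Ago2-IP and polyA RNA were 0.70 for Cdkn1c, -4.02 for Cdkn2a, -3.55 for Cdkn2b, -0.95 for Cdkn2c and -0.41 for Cdkn1a. The call of Cdkn1c was lost in edgeR without polyA miR-106b replicate 3 (0.51, adjusted p = 0.0553) or with TMM within each kind of RNA (0.54, adjusted p = 0.0535). The difference of Cdkn1c was 1.32 without polyA miR-106b replicates 2 and 4. With scaling by library size alone, Cdkn1b was also called lower, at -0.47 in control and -0.41 with miR-106b, and the median of all tested genes moved to about -0.35 and -0.19. It was called as well with TMM within each kind of RNA (-0.46 in control and -0.43 with miR-106b, adjusted p = 0.00186 and 0.00791) and, in control, without a filter on low counts (-0.33, adjusted p = 0.0235). Cdkn1b was called with miR-106b as well without polyA replicate 2 (-0.34, adjusted p = 0.0278) or Ago2-IP replicate 2 (-0.35, adjusted p = 0.0423) of that transfection. Without polyA miR-106b replicates 2 and 4 together, Cdkn1b was again called lower (-0.40, adjusted p = 0.0149 in edgeR).

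Per length, the order of the members differed between the kinds of RNA. In polyA control, in CPM per kb of exon with TMM over all 16 libraries, Cdkn1a was highest at 50.8 ± 4.23 (SD, n = 4), followed by Cdkn2a at 33.5, Cdkn2b at 22.7, Cdkn2c at 17.3, Cdkn1b at 13.9, Cdkn2d at 11.7 and Cdkn1c at 3.39. No neighbours in this order overlapped in their 4 libraries. In polyA miR-106b the means ran from 36.5 ± 3.49 for Cdkn1a to 7.98 ± 3.48 for Cdkn1c, and every pair of neighbours overlapped. In Ago2-IP control Cdkn1a was again highest, at 28.2 ± 1.27 CPM per kb, but Cdkn1c came next at 15.4, with Cdkn2d at 13.0, Cdkn1b at 12.6, Cdkn2c at 7.31, Cdkn2b at 2.15 and Cdkn2a at 1.62. Without replicate 4 the mean of Cdkn2a in this group was 0.686 CPM per kb. Cdkn1c, Cdkn2d and Cdkn1b overlapped as neighbours, as did Cdkn2b and Cdkn2a.

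**Figure D4:**
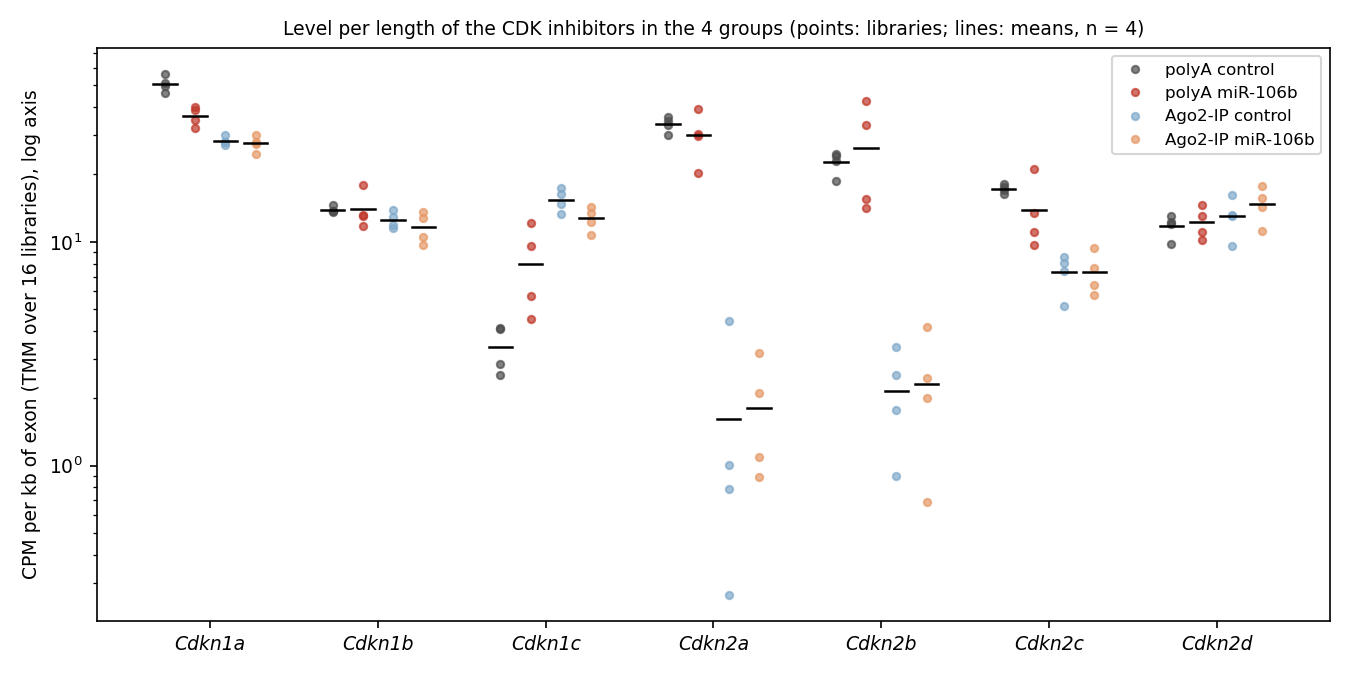
Level of each CDK inhibitor per length, in CPM per kb of exon with TMM over 16 libraries, on a log axis. Points are libraries, coloured by group, and lines are means of 4. Cdkn1c stepped up from 3.39 in polyA control to 15.4 in Ago2-IP control, and Cdkn2a down from 33.5 to 1.62, or to 0.686 without Ago2-IP control replicate 4.

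Within the CIP/KIP members the same contrast appeared without any scaling. Cdkn1c made up 2.08% to 3.53% of the counts of Cdkn1a, Cdkn1b and Cdkn1c in polyA control, 4.46% to 11.8% in polyA miR-106b, 14.4% to 18.8% in Ago2-IP control and 13.5% to 15.8% in Ago2-IP miR-106b. The mean of polyA miR-106b lay between those of polyA control and Ago2-IP control for 5 of the 7 members, Cdkn1b and Cdkn2b being the exceptions, and for 73.6% of all tested genes. The cardiac levels of the groups stood in the same order. The kidney tubule and podocyte markers summed to 119 to 278 CPM in polyA RNA. In Ago2-IP RNA, where Cdkn2a and Cdkn2b were also lowest, they summed to 1.999 to 17.1 CPM. The polyA sum was nearly all Cdh16 (means of 165 CPM in polyA control and 2.78 CPM in Ago2-IP control) and Lrp2 (16.9 and 1.17 CPM). No other gene of the list had more than 19 counts over the 16 libraries. The part of the cardiac and kidney transcripts in the difference between Ago2-IP and polyA RNA was not tested.

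Genes with and without a seed match were also compared as groups. In polyA RNA, the median log2 fold change was -0.12 over 1954 tested genes with a 7mer-m8 or 8mer and -0.04 over 11268 with neither. In that order, 25.3% and 22.9% of them were called lower, and 17.8% and 21.1% were called higher. Genes with a match also had longer 3′UTRs, with a median of 2566 bases against 1048 bases.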

How the data were processed

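RNA of 16 libraries, 4 for each group, was analysed from gene counts. According to the authors' methods, single-end reads of 50 bases were freed of ribosomal RNA, aligned to the GRCm38 transcriptome with TopHat2 (2.0.10 in the submitters' processing notes, a later version in the methods) and counted with HTSeq. The deposited counts are whole numbers, neither normalized nor filtered, and 0 columns of per-sample values were left unused. Rows without a symbol (197) were kept under their identifiers, and 193 of them have a name in the reference table.

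Counts were fitted in R 4.3.3 with edgeR 4.0.16 (robust quasi-likelihood F test, two-sided, TMM, prior count 0.125, Benjamini-Hochberg threshold 0.05 over all tested genes), keeping genes that reached 1 CPM in 3 or more of the 4 replicates of some group. PolyA and Ago2-IP comparisons were fitted separately, and the ratio and the Ago2-IP against polyA contrasts over all 16 libraries. Library values were compared by exact permutation tests (70 relabellings). DESeq2 1.42.0, other scalings and filters, left-out libraries and a replicate block were alternatives. Same-numbered libraries correlated between -0.52 and 0.38 in their deviations, so the numbers were not taken as pairs. The 4 replicates are separate cultures by the labels, and no pair agreed within sampling noise (chi-square per degree of freedom at least 1.69).

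The members and the lists were chosen with earlier results of these data known. Named were all 7 members, at most the 4 largest called changes in polyA RNA of each list, and the 3 genes most correlated with each member, of which 1 gene is not reported here. Fbxw7 was named outside this rule. On simulated counts of 14897 genes, the polyA fit recovered 86 of 100 changes of 3-fold and 23 of 100 of 1.5-fold, with 6 false calls, and the ratio fit 66 and 3 of 100, with 3 false calls. In the simulation all other genes were unchanged, while 40.5% of tested genes were called in the polyA data. The simulated spread came from a fit over all 16 libraries, so these rates need not hold for the fits reported.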

Additional observations from a re-analysis of the deposited data

Results flagged for a closer look

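Cdkn1b in polyA control replicate 1 stood apart from its group, at 75.1 CPM against 70.5 to 70.9 CPM in the other 3 libraries. It was 1 of 28 groups of 4 libraries examined, and chance flags about 1 in 20 such groups. The change with miR-106b differed between Ago2-IP and polyA RNA for Cdkn1a, by 0.44 on the log2 scale, and for Cdkn1c, by -1.49, each by the interaction test in edgeR given above.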

How the results depend on the processing

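Over the alternatives, the number of members called was within 1.5 times 2 in polyA RNA and in the ratio, 0 in Ago2-IP RNA, and within 1.5 times 5 in each contrast of Ago2-IP with polyA RNA, except as follows. Without polyA miR-106b replicates 2 and 4, chosen after seeing the data, 1 member was called in polyA RNA. With a minimum of 10 counts in every library, 3 were called in either contrast of Ago2-IP with polyA RNA, since Cdkn2a and Cdkn2b were then not tested. With the replicate block, 2, 0, 2, 5 and 5 members were called in the 5 comparisons, in that order, no call of a member changed, and Cdkn2b turned to -0.025 in polyA RNA. The numbers give no pairing, so this is a check only.

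Changes of sign touched only values that passed no test, and their causes were not tested. As log2 values, they were 0.012 for Cdkn1b and 0.042 for Cdkn2d in polyA RNA with all 16 libraries fitted together, 0.068 for Cdkn1b without polyA miR-106b replicates 2 and 4, and 0.053, 0.029 and 0.030 for the Cdkn1b ratio with library size only, no filter and TMM within each kind. Cdkn2c in Ago2-IP RNA was -0.013 with no filter, -0.047 in the likelihood ratio test and -0.016 with all 16 libraries. Cdkn2d, Ago2-IP against polyA in control, was -0.18 with library size only, -0.043 with no filter and -0.17 with TMM within each kind. With single libraries left out, ranges crossed 0 in polyA RNA for Cdkn2b (-0.20 to 0.31) and Cdkn2d (-0.17 to 0.058), in Ago2-IP RNA for Cdkn1a (-0.047 to 0.025), Cdkn2a (-0.35 to 1.38), Cdkn2b (-0.32 to 0.40) and Cdkn2c (-0.13 to 0.10), and in the ratio for Cdkn1b (-0.20 to 0.033), Cdkn2a (-0.26 to 1.53) and Cdkn2b (-0.56 to 0.18). With TMM within each kind, Cdkn1c in Ago2-IP against polyA with miR-106b lost its call (0.54, adjusted p = 0.0535 in edgeR) and Cdkn1b gained one (-0.43, adjusted p = 0.00791). The exact permutation tests were not repeated without single libraries.

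The count of all genes called in polyA RNA ran from 5511 to 7326 over the settings that kept all libraries, from 4123 to 6704 with single libraries left out, and was 3104 without polyA miR-106b replicates 2 and 4. The share with a 7mer-m8 or 8mer was 15.73% over any annotated 3′UTR and 22.24% when a 7mer-A1 also counted. Depth limits Cdkn2a and Cdkn2b in Ago2-IP RNA most.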
